A study of Homo sapiens with 82 samples.

Results

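The 10 genes EGR1, EGR2, EGR3, SRF, IER2, IER3, IER5, ZFP36, BTG2 and CYR61 were examined as immediate early genes other than the subunits of the AP1 transcription factor. Each was matched by its symbol to 1 row of the gene count tables, so that they made up 10 of 51838 rows. The rows carry the Ensembl identifiers ENSG00000120738.6 (EGR1), ENSG00000122877.7 (EGR2), ENSG00000179388.7 (EGR3), ENSG00000112658.6 (SRF), ENSG00000160888.5 (IER2), ENSG00000137331.10 (IER3), ENSG00000162783.7 (IER5), ENSG00000128016.3 (ZFP36), ENSG00000159388.5 (BTG2) and ENSG00000142871.10 (CYR61). Immediate early genes are transcribed within minutes of a growth signal without new protein synthesis, mostly through the ERK kinase cascade and the serum response factor SRF, and their mRNAs are short-lived. Their products are transcription factors, RNA decay factors and secreted proteins that shape the later response, and in colon epithelium they are known to follow growth factor signaling and injury. In HT29 cells, EGR1, IER2, IER3, ZFP36 and CYR61 were higher at 48 h than at 24 h of DMSO, from 1.96-fold for CYR61 to 19.8-fold for EGR1. EGR2 was higher as well, but its 24 h libraries held 2 to 4 reads each with DMSO, and it entered the test only through its 48 h libraries. At 48 h these 6 genes and IER5 were lower with either LXR agonist than with DMSO, whereas none of them was called with the PPARG agonist rosiglitazone. BTG2 followed another course and was lower with rosiglitazone at both times.

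HT29 is an established human colorectal adenocarcinoma line that carries mutant BRAF, and all values come from 1 line. Cells received GW3965, T0901317 or rosiglitazone at 10 μM each, or the carrier DMSO, and mRNA was taken at 24 h or 48 h, which gave 8 groups of 4 replicates and 32 libraries. GW3965 and T0901317 are agonists of the liver X receptors (LXRs), rosiglitazone is an agonist of PPARG, and all groups including DMSO were grown in phenol-red-free medium with charcoal-treated serum before treatment. The methods of the study describe the treatments as quadruplicate, but neither they nor the labels say whether these came from separate cultures, so p-values may measure only the spread between these libraries, which may be technical.

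The depth of the 24 h libraries was 21044798 to 51332656 counts in total, and that of the 48 h libraries was 32312041 to 50938082. Levels are given in CPM, counts per 1000000 counts of a library, and of 12 markers of intestinal epithelium 11 were at or above 1 CPM in every library, and CDX1 ran from 0.735 to 4.02 CPM. Of 8 markers of stromal, blood and endothelial cells, 7 stayed under 1 CPM in every library, while COL1A1 ran from 2.44 to 8.45 CPM. Replicate 1 of GW3965 at 24 h stood apart from the other 3 over all genes, with a mean chi-square per gene of 31.8 to 73.2 in its pairs against 5.30 to 11.5 in the others, and pairs of the other groups ran from 3.66 to 53.1. The value of 53.1 was that of replicates 1 and 3 of rosiglitazone at 48 h, and replicates 1 and 3 of T0901317 at 48 h had 36.4. The calls that changed without replicate 1 of GW3965 at 24 h were those of EGR1 for GW3965 at 24 h and EGR2 for GW3965 over time. The summed epithelial markers lay between 18305 and 19442 CPM with DMSO at 48 h, 17620 and 18353 with GW3965, 15566 and 17254 with T0901317, and 19798 and 23562 with rosiglitazone. The 24 h and 48 h libraries came in separate count tables, so time and whatever else differed between the tables cannot be told apart.

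SRF binds the CArG box, a short palindrome with CC, a run of A or T, and GG, and 3 of the genes carried it in the RefSeq promoter windows that could be searched. RefSeq windows from 250 bases before to 50 bases after a transcription start (GRCh38.p14) were matched for 7 of the 10 genes, in 10 windows. IER3, CYR61 and EGR3 were not matched. The stretch with the CArG boxes is shown for EGR1, EGR2 and SRF, because these were the matched genes with a box. Expression changes were not used for this choice. Each sequence runs 5′ to 3′ on the gene's own strand, and capitals mark CArG boxes.
EGR1: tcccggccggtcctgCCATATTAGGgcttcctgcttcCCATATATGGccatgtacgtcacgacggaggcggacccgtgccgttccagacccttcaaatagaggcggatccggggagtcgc
EGR2: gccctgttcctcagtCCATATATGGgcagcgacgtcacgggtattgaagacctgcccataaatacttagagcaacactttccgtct
SRF: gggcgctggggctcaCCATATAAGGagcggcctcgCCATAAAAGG
The EGR1 stretch is chr5:138465359-138465478 on the plus strand, with boxes from base -105 to -96 and from -83 to -74 relative to the start. The EGR2 stretch is chr10:62816367-62816452 on the minus strand, before the third of its annotated starts, with a box from base -71 to -62. The SRF stretch is chr6:43171224-43171268 on the plus strand, with boxes from base -30 to -21 and from -10 to -1.

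The CArG box was found on either strand in 1.29% of all 35116 promoter windows, and in windows of 1.60% of the 27305 genes that have them. The ACGTCA core of the cyclic AMP response element is contained in its full form TGACGTCA. This core was present in windows of EGR1 and EGR2, against 7.98% of all windows and 9.64% of these genes. The motif GCGNGGGCG, which EGR proteins bind, was present in windows of EGR1, EGR2, BTG2 and SRF. Of all windows 9.43% had it, and of the 27305 genes 11.2%. The AP1 motif TGANTCA, the full TGACGTCA and the LXR element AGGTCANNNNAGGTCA were not found in the windows of the 7 genes. They were in 7.71%, 1.85% and 0.0199% of all windows and in 9.37%, 2.25% and 0.0256% of the 27305 genes. None of these motifs was found in the windows of IER2, IER5 and ZFP36. Motif matches are descriptions of the reference sequence, and binding was not measured at them.

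Levels are CPM after TMM scaling, which corrects library totals for differences in composition, and changes are log2 fold changes ± SE. A gene was called when its Benjamini-Hochberg adjusted p in edgeR's quasi-likelihood test, corrected over all genes tested, was under 0.01 and its fold change was at least 1.5. The verbs rose and fell are used for called genes. In bulk RNA, a change in every cell and a change in the share of cells that express a gene cannot be told apart. Levels are compared between groups for 1 gene at a time, because gene lengths were not used.

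**Figure D1:**
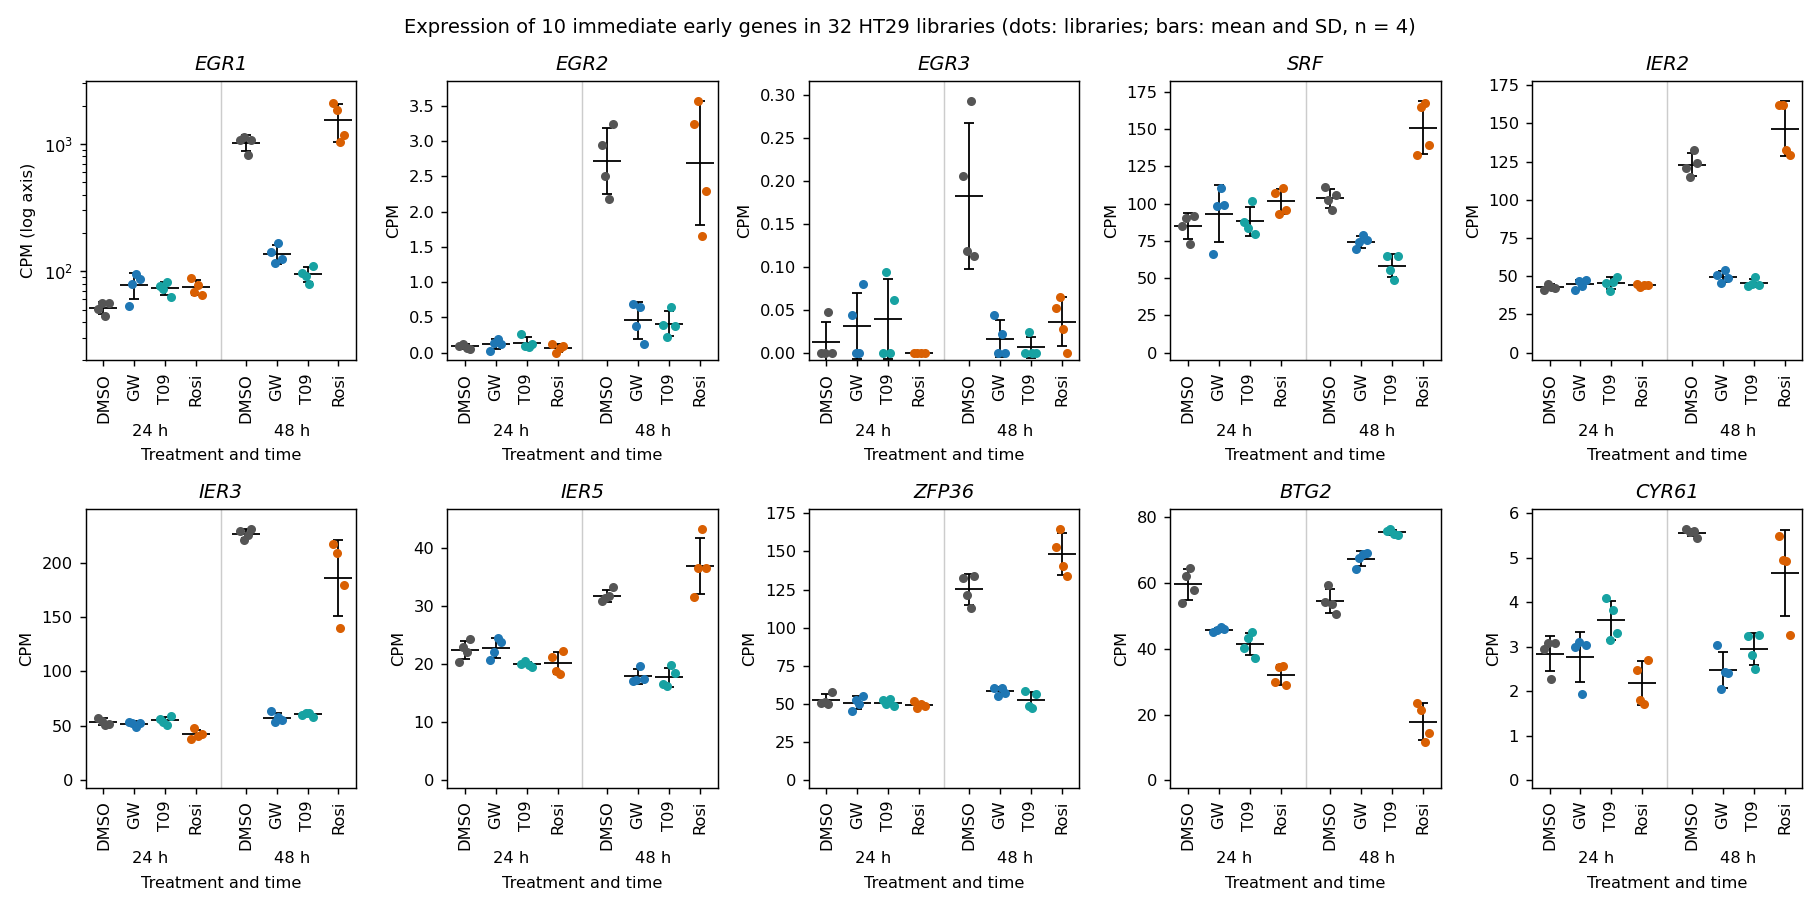
Expression of the 10 genes in CPM (a log axis for EGR1, linear axes for the others) in the 4 libraries of each of 8 groups. GW is GW3965, T09 is T0901317 and Rosi is rosiglitazone, dots are libraries, and bars give the mean and SD. For EGR1 and IER2 the DMSO and rosiglitazone libraries at 48 h lie above all other groups, while for BTG2 the rosiglitazone libraries are the lowest at both times.

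In DMSO-treated cells, 6 of the 9 genes that could be tested rose from 24 h to 48 h and none fell, where 10.9% of 23140 genes rose. Without EGR2, which passed the filter on low counts only through its 48 h libraries, these were 5 of 8 genes. The genes were chosen with earlier results of these data known, so the counts of called genes here and below are descriptions. The median change of the 9 genes was 1.25 on the log2 scale, or 1.11 without EGR2, and that of all genes tested was 0.0016. EGR1 encodes a zinc finger transcription factor that carries growth signals to later target genes. It measured 50.5, 56.4, 44.3 and 55.9 CPM at 24 h and 1073, 1127, 815 and 1079 CPM at 48 h. The groups were far apart, with a change of 4.31 ± 0.19 (adjusted p = 2.52e-18), or 19.8-fold.

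EGR2, a related factor, measured 0.0981, 0.128, 0.0712 and 0.0561 CPM at 24 h, from 2 to 4 reads a library. At 48 h it measured 2.94, 2.51, 2.17 and 3.25 CPM, from 85 to 115 reads. It rose by 4.91 ± 0.46 (adjusted p = 1.54e-10), but in this fit 0 of its 24 h libraries reached the cutoff of the filter, so it entered the test through the libraries in which it was high. Without the filter the change was 4.92 ± 0.43 (adjusted p = 6.09e-13). EGR3, the least abundant of the EGR genes here, passed the filter in no fit. Its counts were 0, 0, 2 and 0 reads at 24 h and 7, 4, 12 and 4 reads at 48 h. Relative to total counts this was a ratio of 14.2 (exact 95% interval 3.58 to 124), and such intervals cover counting error only. In edgeR without the filter its adjusted p was 0.016, which was not called.

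IER3, an early response gene that modulates apoptosis and ERK signaling, had the next largest change. It rose from 57.5, 54.9, 50.8 and 51.7 CPM to 229, 221, 226 and 231 CPM, a change of 2.08 ± 0.09 (adjusted p = 6.83e-19). Its SD was 3.10 CPM on a mean of 53.7 CPM at 24 h, and 4.41 CPM on a mean of 227 CPM at 48 h. The counts of IER3 were even numbers in 31 of 32 libraries, against 14 to 20 of 32 for the other genes except SRF with 11, EGR2 with 18 of 31 nonzero and EGR3 with 11 of 15 nonzero, and how this affects its level was not tested.

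IER2, a nuclear immediate early protein, measured 40.7, 45.2, 43.1 and 42.0 CPM at 24 h and 121, 115, 132 and 124 CPM at 48 h. ZFP36, or tristetraprolin, which binds AU-rich mRNAs and speeds their decay, measured 50.6, 51.7, 49.9 and 58.2 CPM at 24 h and 133, 121, 113 and 134 CPM at 48 h. CYR61, a secreted matricellular protein, went from 2.94, 3.10, 2.28 and 3.08 CPM to 5.64, 5.58, 5.61 and 5.45 CPM. None of these groups overlapped. The changes were 1.52 ± 0.07 for IER2 (adjusted p = 1.41e-17), 1.25 ± 0.07 for ZFP36 (adjusted p = 2.34e-15) and 0.97 ± 0.16 for CYR61 (adjusted p = 5.38e-06).

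The other 3 genes were not called with DMSO alone. IER5, an early response gene linked to the heat shock factor HSF1, measured 22.4 ± 1.61 CPM (SD, n = 4) at 24 h and 31.8 ± 1.05 CPM at 48 h. Its change of 0.50 ± 0.08 had an adjusted p of 3.96e-06 and stayed under 1.5-fold. SRF measured 84.9 ± 8.68 CPM at 24 h and 104 ± 6.35 CPM at 48 h, with a change of 0.29 ± 0.11 (adjusted p = 0.0333). BTG2, an antiproliferative protein that recruits mRNA deadenylases, measured 59.7 ± 4.68 CPM and 54.4 ± 3.66 CPM, and these groups overlapped.

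At 48 h the LXR agonists separated most of these genes from DMSO. With GW3965, 7 of the 9 genes tested were lower and none was higher, where 7.78% of 22470 genes were lower. With T0901317, 8 of the 9 were lower and none was higher, where 7.28% of genes were lower. The medians over the 9 genes were -1.16 and -1.25 on the log2 scale, against 6.0e-05 and 0.013 over all genes tested. All drugs of a time point were compared with the same 4 DMSO libraries, and the DMSO libraries at 48 h also enter the change over time, so these comparisons are not independent.

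EGR1 measured 142, 116, 166 and 124 CPM with GW3965 and 97.6, 91.7, 78.8 and 110 CPM with T0901317 at 48 h. Every one of these libraries was below every DMSO library of that time. The changes against DMSO were -2.90 ± 0.19 with GW3965 (adjusted p = 4.79e-10), a 7.49-fold lower level, and -3.44 ± 0.19 with T0901317 (adjusted p = 7.56e-11), a 10.8-fold lower level. EGR2 measured 0.686, 0.379, 0.643 and 0.117 CPM with GW3965, from 6 to 31 reads, and 0.386, 0.221, 0.654 and 0.376 CPM with T0901317, from 9 to 30 reads. It changed by -2.58 ± 0.35 (adjusted p = 6.47e-06) and -2.71 ± 0.35 (adjusted p = 4.35e-06). Of its libraries with DMSO all 4 reached the cutoff of the filter, and with either LXR agonist 3 of 4 did. EGR3 had 2, 0, 1 and 0 reads with GW3965 and 0, 1, 0 and 0 reads with T0901317, against 27 reads in all with DMSO. The ratio of DMSO over drug was 11.6 (exact 95% interval 3.57 to 59.8) for GW3965 and 34.5 (5.69 to 1412) for T0901317. In edgeR without the filter the adjusted p was 0.00848 and 0.00156.

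IER3 measured 63.3, 53.3, 58.6 and 55.1 CPM with GW3965 and 60.0, 62.2, 61.9 and 58.3 CPM with T0901317, near its level in all groups of 24 h but rosiglitazone. It changed by -1.98 ± 0.10 and -1.90 ± 0.10 on the log2 scale (adjusted p = 1.19e-11 and 2.09e-11). IER2 measured 50.9, 45.6, 54.0 and 48.6 CPM with GW3965 and 43.7, 45.2, 49.5 and 44.3 CPM with T0901317. It changed by -1.31 ± 0.08 and -1.43 ± 0.08 (adjusted p = 2.31e-10 and 7.86e-11). IER5 changed less, by -0.83 ± 0.09 and -0.84 ± 0.09 (adjusted p = 2.63e-07 and 2.67e-07). Its means of 17.9 ± 1.24 CPM (SD, n = 4) and 17.7 ± 1.67 CPM lay below those of all other groups, at both times.

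ZFP36 measured 60.6, 55.6, 60.5 and 57.4 CPM with GW3965 and 58.3, 48.4, 47.7 and 56.4 CPM with T0901317. It changed by -1.10 ± 0.08 and -1.25 ± 0.08 (adjusted p = 2.27e-09 and 4.77e-10), to a mean of 58.5 ± 2.44 CPM (SD, n = 4) and 52.7 ± 5.40 CPM. CYR61 measured 3.03, 2.06, 2.44 and 2.42 CPM with GW3965 and 3.24, 2.82, 2.51 and 3.27 CPM with T0901317. It changed by -1.16 ± 0.15 and -0.91 ± 0.14 (adjusted p = 2.67e-06 and 4.26e-05), and no library of either drug reached the DMSO range.

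SRF measured 69.3, 74.2, 78.9 and 75.3 CPM with GW3965 and 64.6, 55.3, 48.7 and 64.6 CPM with T0901317. It fell with T0901317 (-0.83 ± 0.09, adjusted p = 5.46e-07). With GW3965 its change of -0.48 ± 0.09 had an adjusted p of 0.000225 but stayed under 1.5-fold. BTG2 had values in the opposite direction, with 67.4 ± 2.27 CPM (SD, n = 4) for GW3965 and 75.4 ± 0.891 CPM for T0901317. Its changes of 0.30 ± 0.13 (adjusted p = 0.0676) and 0.47 ± 0.13 (adjusted p = 0.0072) were under 1.5-fold and were not called, although no library of either drug overlapped DMSO.

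**Figure D2:**
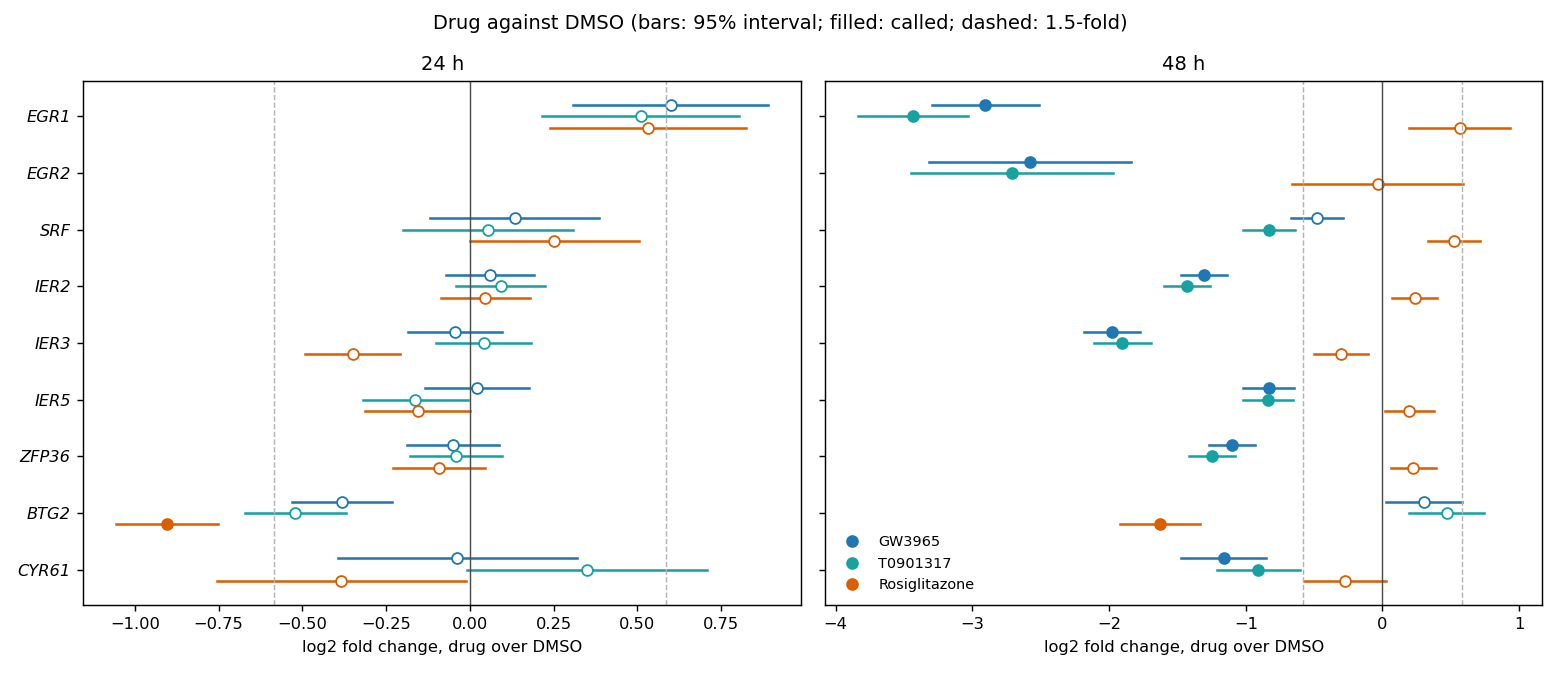
Log2 fold change of each drug against DMSO of the same time for the genes that could be tested, at 24 h (left) and 48 h (right, on a wider axis). Points are estimates with 95% intervals, filled where called, and dashed lines mark a 1.5-fold change. At 48 h the points of GW3965 and T0901317 lie left of 0 for all genes but BTG2, and those of rosiglitazone lie within 1.5-fold for all genes but BTG2.

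With rosiglitazone at 48 h, 1 of the 9 genes tested was lower and none was higher, where 7.4% of genes were lower. BTG2 was the gene that fell. It measured 23.6, 21.5, 11.8 and 14.4 CPM against 54.1, 59.4, 53.6 and 50.6 CPM with DMSO, a change of -1.63 ± 0.14 (adjusted p = 3.04e-08). All 4 libraries were below every DMSO library.

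EGR1 measured 2078, 1845, 1044 and 1173 CPM with rosiglitazone at 48 h, so that its 4 libraries spread over nearly 1 log2 unit and overlapped DMSO. Its change of 0.56 ± 0.18 (95% interval 0.20 to 0.93) had an adjusted p of 0.0162 and was not called. It was called without replicate 3 (0.71, adjusted p = 0.00158) or replicate 4 (0.67, adjusted p = 0.00633) of rosiglitazone. The same 2 libraries had the lower values of EGR2, at 1.66 and 2.29 CPM against 3.24 and 3.56 CPM, and of BTG2. SRF measured 132, 165, 167 and 139 CPM, above every DMSO library, with a change of 0.52 ± 0.09 (adjusted p = 0.000143) under 1.5-fold. IER2, IER5 and ZFP36 had changes between 0.20 and 0.23, and IER3 and CYR61 had changes of -0.30 and -0.27, none of them called. EGR3 had 2, 2, 1 and 0 reads, so that DMSO over rosiglitazone was a ratio of 5.87 (exact 95% interval 2.23 to 19.5). In edgeR without the filter, which includes the spread between libraries, this was -2.25 ± 0.88 (adjusted p = 0.0711) and was not called.

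At 24 h few of these genes differed between drugs and DMSO. Of 8 genes tested, none was called with GW3965, where 1.34% of 21781 genes were higher or lower, and none with T0901317, where 0.721% were. With rosiglitazone 1 gene was lower, where 3.13% of genes were, and it was again BTG2. Without the fold change limit, the counts at an adjusted p under 0.01 were 1 gene for GW3965, 1 for T0901317 and 3 for rosiglitazone. At an unadjusted p under 0.05 edgeR gave 2 genes with GW3965 and 3 with T0901317, and DESeq2 called 1 gene with GW3965 (EGR1) and 0 with T0901317. The share of all genes was not counted without the fold change limit, at an unadjusted p or with DESeq2. These counts therefore cannot be set against the shares above and are no result about the set.

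BTG2 at 24 h measured 54.0, 62.1, 64.6 and 57.9 CPM with DMSO, 45.2, 45.6, 46.5 and 45.9 CPM with GW3965, and 40.3, 43.2, 45.2 and 37.2 CPM with T0901317. With rosiglitazone it measured 29.9, 34.4, 34.7 and 29.0 CPM. All 12 drug-treated libraries were below all 4 DMSO libraries. Only the change with rosiglitazone was called (-0.90 ± 0.07, adjusted p = 2.62e-08), and those with GW3965 (-0.38 ± 0.07, adjusted p = 0.00194) and T0901317 (-0.52 ± 0.07, adjusted p = 0.000157) were under 1.5-fold. With the LXR agonists BTG2 therefore measured below DMSO at 24 h and above it at 48 h.

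EGR1 at 24 h measured 53.4, 79.0, 95 and 86.8 CPM with GW3965, 76.2, 72.5, 82.5 and 63.1 CPM with T0901317, and 88.4, 68.2, 78.4 and 65.3 CPM with rosiglitazone. Its changes were 0.60 ± 0.14 (adjusted p = 0.0131), 0.51 ± 0.14 (adjusted p = 0.0627) and 0.53 ± 0.14 (adjusted p = 0.00995), none of them called. Replicate 1 of GW3965 lay within the DMSO range, and without it, the library that stood apart over all genes, the change was 0.75 (adjusted p = 4.26e-05) and was called. EGR1 therefore measured above DMSO with each drug at 24 h, without a call. The means differed by 1.52-fold for GW3965, 1.42-fold for T0901317 and 1.44-fold for rosiglitazone. At 48 h EGR1 was far below DMSO with the LXR agonists. IER3 was at 42.3 ± 4.08 CPM (SD, n = 4) with rosiglitazone against 53.7 ± 3.10 CPM with DMSO, a change of -0.35 ± 0.07 (adjusted p = 0.000914) under 1.5-fold.

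The other 5 genes tested had changes between -0.38 and 0.35 at 24 h, with all adjusted p of 0.141 or more. EGR2 had at most 10 reads and EGR3 at most 4 reads in any library of 24 h. EGR3 had 0 reads in each of the 4 rosiglitazone libraries. For a single library taken alone, 0 reads allow an expected count of up to 3, and the 4 libraries together allow less. In edgeR without the filter neither was called against DMSO at 24 h. EGR2 had changes of 0.42 ± 0.71 with GW3965, 0.71 ± 0.71 with T0901317 and -0.27 ± 0.77 with rosiglitazone (adjusted p from 0.801 to 0.925). EGR3 had changes of 1.16 ± 1.38, 1.22 ± 1.47 and -2.25 ± 1.69 in the same order (adjusted p from 0.484 to 0.856). With such an SE even large differences can go undetected at this depth.

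Within a treatment, the change from 24 h to 48 h depended on the drug. With rosiglitazone 7 genes rose, where 14.3% of genes rose, and 1 gene fell, where 11.9% fell. The genes that rose were the 6 genes that rose with DMSO and IER5 (0.87 ± 0.08, adjusted p = 8.3e-11), and BTG2 fell (-0.84 ± 0.12, adjusted p = 3.63e-07). EGR2 entered every test over time only through its 48 h libraries, and without it 6 of 8 genes rose with rosiglitazone. SRF changed by 0.57 ± 0.11 (adjusted p = 6.07e-05), just under 1.5-fold, and was called without replicates 1 or 3 of 24 h or 1 or 4 of 48 h rosiglitazone (0.60 to 0.63). EGR1 rose by 4.35 ± 0.19 on the log2 scale with rosiglitazone, against 4.31 ± 0.19 with DMSO.

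With GW3965 2 genes rose, EGR1 and EGR2, where 8.84% of genes rose. Without EGR2 this was 1 of 8 genes. EGR1 rose by 0.80 ± 0.17 (adjusted p = 0.000296) and EGR2 by 1.93 ± 0.50 (adjusted p = 0.00205), and the call of EGR2 was lost without replicate 1 of 24 h or replicates 1 or 3 of 48 h (adjusted p from 0.0123 to 0.0135). BTG2 changed by 0.56 ± 0.11 with GW3965 and was called without replicate 1 of 48 h (0.59). With T0901317 1 gene rose, where 7.89% rose, and 1 gene fell, where 6.61% fell. These were BTG2 (0.86 ± 0.11, adjusted p = 2.62e-07) and SRF (-0.59 ± 0.11, adjusted p = 7.26e-05), and the change of SRF was so near to 1.5-fold that its call was lost without replicate 3 of 24 h or replicates 2 or 3 of 48 h. IER2, IER3 and ZFP36 stayed within 0.20 of their 24 h level with either LXR agonist, with 95% intervals between -0.14 and 0.35.

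**Figure D3:**
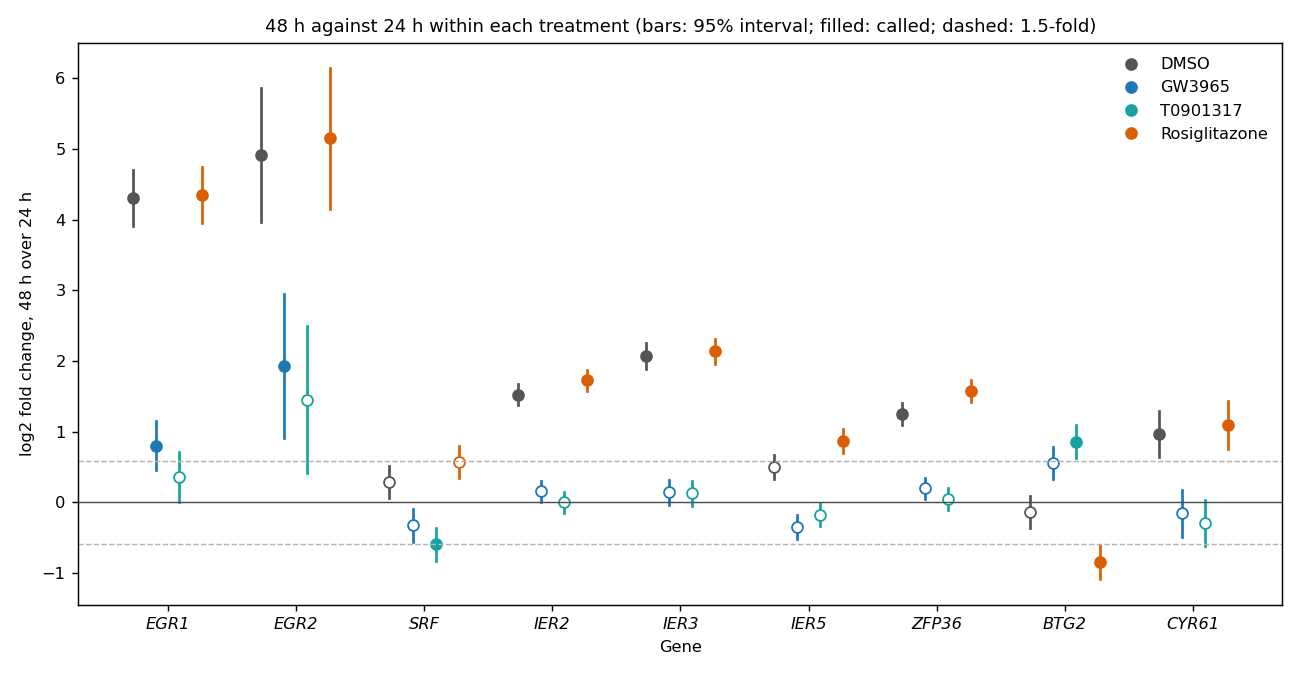
Log2 fold change from 24 h to 48 h within DMSO, GW3965, T0901317 and rosiglitazone for the 9 genes that could be tested. Points are estimates with 95% intervals, filled where called, and dashed lines mark a 1.5-fold change. DMSO and rosiglitazone have near values for EGR1 (4.31 and 4.35), IER2 and IER3, while GW3965 and T0901317 are near 0 for IER2, IER3 and ZFP36.

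The difference between a drug's response at 48 h and at 24 h was tested as an interaction over all 32 libraries. For GW3965 it was lower for 8 genes, where 6.59% of genes were, and higher for 1 gene, where 6.31% were. For T0901317 it was lower for 8 genes, where 5.99% were, and higher for 1, where 4.52% were. Without EGR2, which entered this fit only through its 48 h libraries, it was lower for 7 of 8 genes with either drug. In both drugs the gene with a higher response at 48 h was BTG2, with 0.69 ± 0.16 for GW3965 (adjusted p = 0.00107) and 0.99 ± 0.16 for T0901317 (adjusted p = 1.38e-05). The largest differences were those of EGR1, at -3.50 ± 0.25 for GW3965 (adjusted p = 1.6e-12) and -3.94 ± 0.25 for T0901317 (adjusted p = 1.25e-13). For GW3965, the call of SRF (-0.61 ± 0.16, adjusted p = 0.00315) was lost without replicate 3 of 24 h DMSO, 1 of 48 h DMSO, 3 of 24 h GW3965 or 1 of 48 h GW3965. That of EGR2 (-2.98 ± 0.78, adjusted p = 0.00353) was lost without replicate 3 of 24 h GW3965 (adjusted p = 0.0226). For T0901317, the call of EGR2 (-3.46 ± 0.79, adjusted p = 0.00119) was lost without replicate 1 of 24 h T0901317 (adjusted p = 0.0254). For rosiglitazone 1 gene had a lower response at 48 h, where 0.674% of genes did, and that was BTG2 (-0.71 ± 0.16, adjusted p = 0.00703). Leaving out single libraries ended this call for 8 libraries, with adjusted p from 0.0127 to 0.0216. These were replicates 1 and 4 of DMSO at 24 h, 1 and 2 of DMSO at 48 h, 2 and 3 of rosiglitazone at 24 h, and 3 and 4 of rosiglitazone at 48 h.

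GW3965 and T0901317 are chemically distinct synthetic LXR agonists and were given at the same dose and times. No gene of the set was called between them at 24 h, where 0.358% of genes were higher or lower, or at 48 h, where 2.07% were. At an unadjusted p under 0.05, edgeR and DESeq2 each gave 2 genes at either time, and DESeq2 called 0 genes. The share of all genes at an unadjusted p was not counted, so these are no result about the set. The largest difference at 48 h was that of EGR1, which was higher with GW3965 by 0.53 ± 0.18 (95% interval 0.16 to 0.90, adjusted p = 0.045). SRF was higher with GW3965 by 0.35 ± 0.09 (0.16 to 0.54, adjusted p = 0.0125). For both genes the 4 libraries of GW3965 lay above the 4 of T0901317. IER5 differed by 0.01 (95% interval -0.18 to 0.19) and IER3 by -0.08 (-0.28 to 0.12), whereas the interval of EGR2, from -0.74 to 1, was too wide to tell.

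Rosiglitazone and GW3965, given at the same dose, were then compared with each other. At 24 h none of the 8 genes was called, where 4.69% of genes were higher or lower, and DESeq2 called 0 genes as well. At an unadjusted p under 0.05 there were 3 genes, and 2 genes had an adjusted p under 0.01 with a change under 1.5-fold. The latter were BTG2 (-0.52 ± 0.07, adjusted p = 3.15e-05) and IER3 (-0.30 ± 0.07, adjusted p = 0.00322). The share of all genes at these limits was not counted, so the counts are no result about the set. At 48 h 8 genes were higher with rosiglitazone, where 12.6% of genes were, and 1 was lower, where 15.1% were. EGR1 was higher by 3.47 ± 0.19 (adjusted p = 2.01e-11), an 11.1-fold difference, and BTG2 was lower, with a change of -1.93 ± 0.14 or 3.82-fold (adjusted p = 6.98e-10).

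The order of the 8 group means differed between genes. EGR1, IER2, IER5, ZFP36 and SRF were highest with rosiglitazone at 48 h, followed by DMSO at 48 h, and of these differences between neighbours none was called. EGR2, IER3 and CYR61 were highest with DMSO at 48 h, followed by rosiglitazone at 48 h, again without a call. SRF had its lowest means with the LXR agonists at 48 h, at 74.4 ± 3.94 and 58.3 ± 7.76 CPM (SD, n = 4), below all groups of 24 h. BTG2 had another order, with its highest means for T0901317 and GW3965 at 48 h and its lowest for rosiglitazone at 48 h and 24 h. As a description over 8 group means of log2 CPM, the correlation between EGR1 and IER2 was 0.991 and that between IER2 and ZFP36 was 0.998. For BTG2 it was -0.899 with SRF, -0.492 with EGR1 and -0.284 with CYR61, and those with the other genes lay between the values for SRF and CYR61. These points share libraries and DMSO groups, and no test was made.

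Other genes of the same pathway were described from fixed lists, which were chosen with earlier results of these data known and partly overlap. Of 8 AP1 subunit genes, all 8 rose with DMSO from 24 h to 48 h, where 10.9% of all genes rose. All 8 were lower with either LXR agonist at 48 h, where 7.78% of all genes were lower with GW3965 and 7.28% with T0901317. Among them ATF3 measured 3.48 ± 0.366, 137 ± 6.06 and 15.6 ± 2.17 CPM (SD, n = 4) in DMSO at 24 h, DMSO at 48 h and GW3965 at 48 h. FOSL1 and FOS fell with GW3965, with log2 changes of -2.40 and -1.43. Of 27 other immediate early genes tested, 22 rose and none fell with DMSO over time, and with GW3965 at 48 h 21 were lower and 1 was higher. With rosiglitazone at 48 h, 4 AP1 subunit genes were higher and none was lower, and 9 of the other 27 were higher and 4 were lower, where 4.79% of all genes were higher and 7.4% were lower. The latter list includes DUSP1, KLF10 and CSRNP1, which fell with GW3965 (log2 changes of -2.24, -2.13 and -2.0).

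The genes around the EGR factors and SRF did not all move the same way. Both NAB corepressors of EGR proteins rose with DMSO, where 10.9% of all genes rose, and fell with GW3965, where 7.78% were lower. The log2 changes with the drug were -1.77 for NAB2 and -0.80 for NAB1. The 5 SRF cofactors tested had changes between -0.34 and 0.08 with DMSO over time, and with GW3965 at 48 h 1 of them fell, ELK4 (-0.59). At 48 h another of them, ELK3, rose with T0901317 (1.14), where 6.99% of all genes were higher, and fell with rosiglitazone (-0.94), and it was named after its values were seen. Among 13 cytoskeletal genes known as targets of SRF with its MRTF cofactors, the median change with GW3965 was -0.08. Only 1 fell, a count near the 7.78% of all genes that were lower. That gene was FHL2, which also rose with DMSO (1.86 ± 0.08, adjusted p = 4.04e-19).

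Among 7 ligands of the EGF receptor family tested, 4 rose with DMSO, where 10.9% of all genes rose. With GW3965 at 48 h 4 fell, where 7.78% of all genes were lower. AREG measured 21.1 ± 1.27, 253 ± 14.4 and 16.7 ± 2.84 CPM (SD, n = 4) in DMSO at 24 h, DMSO at 48 h and GW3965 at 48 h, and EREG and HBEGF also fell with GW3965 (-3.38 and -2.88). Of 15 receptors and kinases of the ERK cascade, 2 were higher and 2 were lower with GW3965, where 8.27% of all genes were higher and 7.78% were lower, so these few calls are no result about the cascade. Among them were ERBB2 (0.82 ± 0.10), MAPK3 (0.64 ± 0.07) and BRAF (-0.81 ± 0.12). Of 10 feedback genes of the cascade, 5 rose with DMSO and 5 fell with GW3965, among them DUSP5 (-2.12), ETV5 (-1.05) and SPRY4 (-1.03). With rosiglitazone at 48 h, no feedback gene was higher and 4 were lower, and 1 ligand was higher and 1 was lower. Of all genes 4.79% were higher and 7.4% were lower, so the ligand counts are no result about the ligands.

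Relatives and known partners of ZFP36, BTG2 and CYR61 were counted next. Of 10 genes of the ZFP36 and BTG families and their deadenylases, 1 rose with DMSO and 1 fell with GW3965, and both times it was BTG1 (1.81 and -1.06). These counts are near the shares of all genes, 10.9% and 7.78%. Of 9 genes of the YAP and TEAD pathway tested, 2 fell with GW3965, CTGF (-1.49) and AMOTL2 (-0.71), and WWTR1 rose (1.62 ± 0.21). Of all genes 7.78% were lower and 8.27% were higher, so these few calls are no result about the pathway. Of 12 epithelial markers 2 rose with GW3965, CDX1 (1.05) and VIL1 (0.72), where 8.27% of all genes were higher. The part of these markers in the results was not tested.

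**Figure D4:**
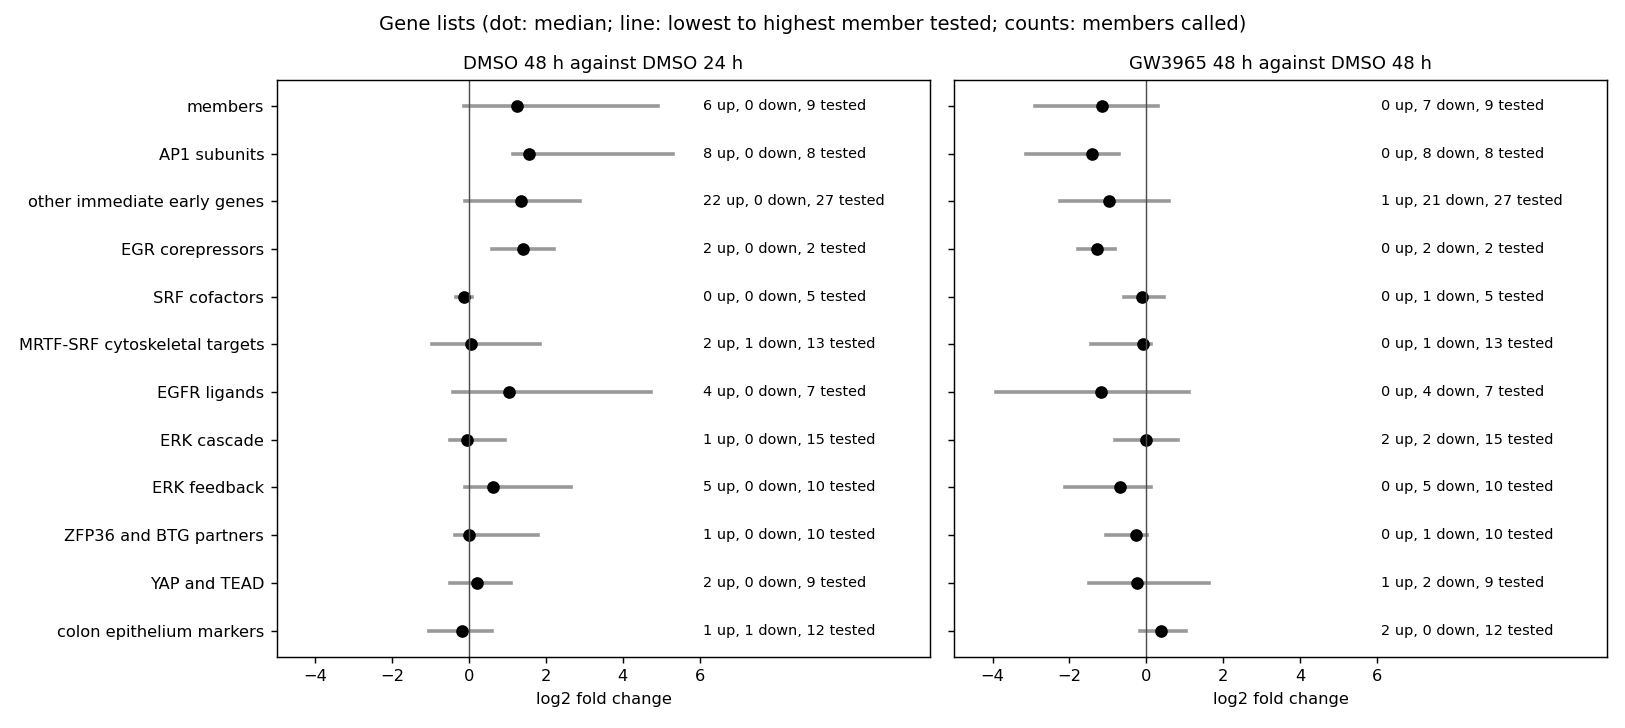
Log2 fold changes of 12 gene lists, the set described here (members) included, for DMSO at 48 h against 24 h (left) and GW3965 against DMSO at 48 h (right). Dots are medians, lines run from the lowest to the highest gene tested, and the text gives the numbers called. The medians of the AP1 subunits and other immediate early genes lie on the same side of 0 as that of the set. They are 1.56 and 1.35 at left and -1.40 and -0.96 at right. Medians of the EGR corepressors, EGFR ligands and ERK feedback genes lie on that side too. The lines of the set and of the other immediate early genes cross 0 in both panels.

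Genes outside the set whose 8 group means were most like it were sought among 10847 genes whose log2 CPM averaged 3 or more. The mean standardised profile of the 9 genes was most like that of MCL1 (Pearson r = 0.997 over 8 groups), which encodes an antiapoptotic BCL2 family protein. Group means in this paragraph are means of log2 CPM turned back to CPM, unlike the means of CPM given elsewhere. MCL1 had a mean of 137 CPM with DMSO at 24 h and 350.3 CPM with DMSO at 48 h. With GW3965 at 48 h it had 150 CPM, and with rosiglitazone at 48 h 371 CPM. It was followed by ST3GAL1 (0.996), BICD1 (0.994), SRSF8 (0.994) and AC114546.1 (0.994). EGR1 alone was most like PLK3 (0.996), an early response kinase, with means of 26.8, 103, 39.6 and 134 CPM in the same 4 groups. HAX1 (0.995), SH3BP2 (0.995), C9orf6 (0.995) and GOT1 (0.994) came next. The genes were picked for this likeness, so the correlations are a description.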

How the data were processed

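RNA of HT29 cells was measured in 32 libraries of a series of 82 samples. For each time point the authors deposited 1 table of raw read counts, with 1 row per Ensembl gene and no normalization. Per the submitters' processing notes TopHat and Cufflinks were used with build hg19, and neither the counting program nor its strand setting is given in the sources used here. The authors compared groups with DESeq. Columns named ROSA were read as rosiglitazone, and no column was left out. The 34 peak files of the series were not used, because no gene coordinates of hg19 were used here. Groups were taken from the labels. The genes and lists were chosen with earlier results of these data known.

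Low counts were removed by filterByExpr and libraries scaled by TMM in edgeR 4.0.16 (R 4.3.3), and the 16 libraries of each time point were fitted together. A fit of all 32 libraries served for changes over time and for interactions. They covered 21781, 22470 and 23140 genes, with a biological coefficient of variation of 0.0981, 0.101 and 0.0998. The quasi-likelihood test was used, with Benjamini-Hochberg adjustment over all genes tested. The procedure was tested on simulated data with known fold changes. Promoter windows are those of RefSeq (GRCh38.p14). Named were all 10 genes, from each list up to 3 called genes with the largest change for GW3965 at 48 h, and the 5 genes most like the set and like EGR1. A log2 pseudocount of 1 CPM was used for likeness. Alternatives were DESeq2 1.42.0, 2 other scalings, no filter, other fold limits, fits of the groups compared, a replicate block and leaving out single libraries. Python 3.11.15 with pandas 2.3.3, numpy 2.4.6, scipy 1.17.1 and matplotlib 3.10.9 was used for tables and plots. The depth of 21044798 to 51332656 counts leaves genes with few reads, such as EGR3, with wide intervals. 1 further gene list is not reported here.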

Additional observations from a re-analysis of the deposited data

Results flagged for a closer look

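In 4 of 80 groups of 4 libraries, 1 library lay far from the other 3 by Dixon's ratio of its gap to the range of the group, past its 95% critical value. Chance alone flags about 1 in 20 groups, or 4 of 80. EGR3 had a ratio of 1 with DMSO at 24 h (0, 0, 2 and 0 reads) and of 1 with T0901317 at 48 h (0, 1, 0 and 0 reads). IER5 had a ratio of 0.865 with GW3965 at 48 h, where replicate 3 measured 19.7 CPM and the others 17 to 17.4 CPM. CYR61 had a ratio of 0.895 with GW3965 at 24 h, where replicate 3 measured 1.95 CPM and the others 2.99 to 3.12 CPM.

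The response to a drug differed between 48 h and 24 h, by the interaction test, for all 9 genes tested with either LXR agonist. EGR2 was among them and entered this test only through its 48 h libraries. For GW3965 the difference was -3.50 for EGR1, -2.98 for EGR2, -1.93 for IER3, -1.37 for IER2, -1.12 for CYR61, -1.05 for ZFP36, -0.85 for IER5, -0.61 for SRF and 0.69 for BTG2, on the log2 scale. For T0901317 it was -3.94 for EGR1, -3.46 for EGR2, -1.94 for IER3, -1.52 for IER2, -1.26 for CYR61, -1.20 for ZFP36, -0.88 for SRF, -0.67 for IER5 and 0.99 for BTG2. For rosiglitazone it was -0.71 for BTG2. The DMSO libraries of both times enter all of these differences.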

How the results depend on the processing

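Of 296 recomputed counts of called genes 34 changed by over 1.5 times, and of 2582 recomputed changes of single genes 44 lost a call, 26 gained one and 0 turned direction. A 2-fold limit gave 0 called genes for rosiglitazone at 24 h, 5 for T0901317 at 48 h, 1 for GW3965 over time, 0 for T0901317 over time and 0 for the rosiglitazone interaction. Without a fold limit there were 1 for GW3965 and 1 for T0901317 at 24 h, 3 for rosiglitazone at 24 h, 2 for rosiglitazone at 48 h, 2 for rosiglitazone against GW3965 at 24 h and 4 for GW3965 over time. Shares of all genes were not counted at these other fold limits. GW3965 at 24 h had 1 called gene with DESeq2 and 1 without the filter, EGR1 in both. T0901317 over time had 1 called gene with library size alone and 1 without the filter, where SRF fell just short of the fold limit. Fits of only the groups compared gave 1 for GW3965 over time, where EGR2 was not tested, and 0 for the rosiglitazone interaction.

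With 1 library left out the counts ran from 0 to 1 for GW3965 at 24 h, from 1 to 2 for rosiglitazone at 48 h, GW3965 over time and T0901317 over time, and from 0 to 1 for the rosiglitazone interaction. They ran from 7 to 9 for the GW3965 interaction, from 8 to 9 for the T0901317 interaction and for rosiglitazone over time, and stayed at 7, 8 and 6 for GW3965 and T0901317 at 48 h and DMSO over time.

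The replicate numbers did not pair the libraries: same-numbered libraries of a time point had a median correlation of deviations of 0.0383 over 48 pairs, 13 of them over 0.1, and 9 of 32 libraries matched their own number best. With a replicate block T0901317 over time had 1 called gene in place of 2, and no other count changed by over 1.5 times. For GW3965 over time the count of 2 stayed, but EGR2 lost its call (adjusted p = 0.0431) and BTG2 gained one (0.72, adjusted p = 0.000253). SRF gained a call for rosiglitazone over time (0.66, adjusted p = 0.00125). Scaling by library size alone moved the median of all genes by over 0.1 in 4 of 17 comparisons, at most by -0.179, to -0.191 for rosiglitazone at 48 h. Peaks near these genes, listed as an alternative measure, were not run. EGR3 is limited by its few reads.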
